A study of Mus musculus with 2 samples.

Results

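Transforming growth factor beta (TGF-beta) ligands, their receptors and the proteins that keep the ligands latent were followed as 10 genes in single cells of dystrophic mouse muscle. The genes were taken by symbol from the 24984 genes in the files and comprised 3 ligands (Tgfb1, Tgfb2 and Tgfb3), 3 receptors (Tgfbr1, Tgfbr2 and Tgfbr3) and 4 latent TGF-beta binding proteins (Ltbp1, Ltbp2, Ltbp3 and Ltbp4). All 10 were found in both libraries. Live mononuclear cells from hind limb muscle were sorted and sequenced with the 10x droplet method. The Ctrl library came from Pax7CreERT2/R26YFP; Yy1+/+; mdx mice and the dKO library from Pax7CreERT2/R26YFP; Yy1 f/f; mdx mice, so both groups lacked dystrophin and carried the Cre and the reporter. All mice received tamoxifen and were young adults when muscle was taken about a month later. The Cre is driven by Pax7, so Yy1, which encodes a DNA-binding transcription factor, was targeted in muscle stem cells (MuSCs) and not in the cells that hold most of the RNA described here. Each library pooled 3 mice and each group had 1 library, so there was no replicate error, no test was run, and no difference below has a replicate check.

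The Ctrl library held 4527 cell barcodes and the dKO library 3483, with a median per cell of 7697 and 7615 UMIs, the molecular tags by which each captured RNA is counted once. After filters on genes per cell and doublets, 4010 and 3079 cells were kept, and 7 cell barcodes occurred in both libraries. Clusters were named from marker genes and joined to 14 classes, written as "like" since the names rest on RNA alone. The 10 markers of fibro-adipogenic progenitors (FAPs) summed to 36368 and 30689 CPM in FAP-like cells of Ctrl and dKO, against 269 and 176 CPM in monocyte and macrophage-like (MO/MP-like) cells. They were as high in other stromal classes, with 32251 and 38587 CPM in tenocyte-like cells, which the 9 tenocyte markers set apart (27637 and 29674 CPM, against 2191 and 2003 CPM in FAP-like cells). A cluster led by Fcna and Cd163 and one led by Sfrp5 did not meet the naming rule and are called by those genes. Yy1 itself had 369 UMIs in MuSC-like cells of Ctrl and 3 UMIs in those of dKO. All intervals are 95% intervals that cover counting error only, and a level is a gene's CPM, its UMIs per 1000000 UMIs of its class. Levels are compared between classes for 1 gene, and not between genes.

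TGF-beta ligands are secreted in a latent form, bound to their own propeptide and, in most cells, to a latent TGF-beta binding protein that ties them to the matrix. Integrins, proteases and matrix proteins release the ligand, which binds the type II receptor Tgfbr2. Tgfbr2 then activates the type I receptor Tgfbr1, which phosphorylates Smad2 and Smad3. Tgfbr3, also called betaglycan, is a co-receptor that presents ligand to Tgfbr2 and matters most for Tgfb2. In dystrophic muscle this pathway is known for driving FAPs towards matrix-producing cells and fibrosis.

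The ligand genes Tgfb1 and Tgfb2 were held by different classes, so the 250 bases before their RefSeq starts (GRCm38.p6) are shown, read 5′ to 3′ on the strand of the gene, with motif matches in capitals. Tgfb1 lies at chr7:25687002-25705077 on the plus strand and its window at chr7:25686752-25687001. Tgfb2 lies at chr1:186622792-186705989 on the minus strand and its window at chr1:186705990-186706239.
Tgfb1: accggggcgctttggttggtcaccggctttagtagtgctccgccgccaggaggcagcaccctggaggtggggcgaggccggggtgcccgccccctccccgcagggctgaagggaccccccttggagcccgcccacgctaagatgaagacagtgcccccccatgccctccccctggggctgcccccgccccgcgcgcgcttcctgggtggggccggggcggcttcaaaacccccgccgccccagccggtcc
Tgfb2: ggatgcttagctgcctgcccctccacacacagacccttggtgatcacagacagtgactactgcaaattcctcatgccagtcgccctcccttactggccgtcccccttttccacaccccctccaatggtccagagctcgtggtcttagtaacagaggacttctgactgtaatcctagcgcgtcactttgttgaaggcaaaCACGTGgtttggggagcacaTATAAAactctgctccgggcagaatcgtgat
The Tgfb1 window was 75.2% G and C and held none of the 6 motifs searched on both strands. The Tgfb2 window was 53.6% G and C, close to the median of 52.4% over all 32851 RefSeq windows of this length. It held an E-box (CACGTG) at 51 to 46 bases before the start and a TATA box (TATAAA) at 31 to 26 bases before it, and these 2 matches do not overlap. An E-box stood in 6.02% of all windows and a TATA box in 12.4%. RefSeq gave 12 windows for 8 of the 10 genes. The YY1 core (CCATNTT, in 12.4% of all windows), the AP-1 motif (TGANTCA, 6.75%) and the SMAD palindrome (GTCTAGAC, 0.167%) had no match in any of the 12, and the CRE (TGACGTCA, 1.55%) had a match in 1 window of Ltbp1. A match says only that these letters are present. On the same build, the annotation (GENCODE M21) places Tgfb3 at chr12:86056745-86079041 (minus strand), Tgfbr1 at chr4:47353222-47414931 (plus), Tgfbr2 at chr9:116084293-116175360 (minus) and Tgfbr3 at chr5:107106570-107289629 (minus). Of the latency proteins, Ltbp1 lies at chr17:75005568-75392512 (plus), Ltbp2 at chr12:84783212-84876532 (minus), Ltbp3 at chr19:5740904-5758532 (plus) and Ltbp4 at chr7:27305136-27337692 (minus), and the UMIs counted here were assigned to whole genes.

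The cells that held each gene's UMIs fell into 2 patterns. Tgfb1 and, in Ctrl, Tgfbr1 were held mainly by MO/MP-like cells, and the other 8 genes mainly by FAP-like cells. Of the 5556 Tgfb1 UMIs in Ctrl, 65.6% (64.3 to 66.8) lay in MO/MP-like cells and 8.96% in FAP-like cells, and of the 2973 in dKO the shares were 60.1% (58.4 to 61.9) and 15.0%. Tgfb2 was the reverse, with 0.674% of 3563 UMIs in MO/MP-like cells of Ctrl and 74.2% (72.7 to 75.6) in FAP-like cells. In dKO, FAP-like cells held 90.3% (89.4 to 91.2) of 3966 Tgfb2 UMIs. The most one-sided gene was Ltbp2, with 92.3% and 92.4% of its UMIs in FAP-like cells. The share of Tgfbr1 UMIs in MO/MP-like cells was 50.2% (48.3 to 52.0) in Ctrl and 34.3% (31.8 to 36.8) in dKO, and that in FAP-like cells was 26.6% and 49.9%. These shares depend on how many cells of each class were captured: FAP-like cells were 28.0% of Ctrl and 38.3% of dKO cells, MO/MP-like cells 29.6% and 31.0%, and endothelial cell-like (EC-like) cells 11.6% and 5.81%.

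**Figure D1:**
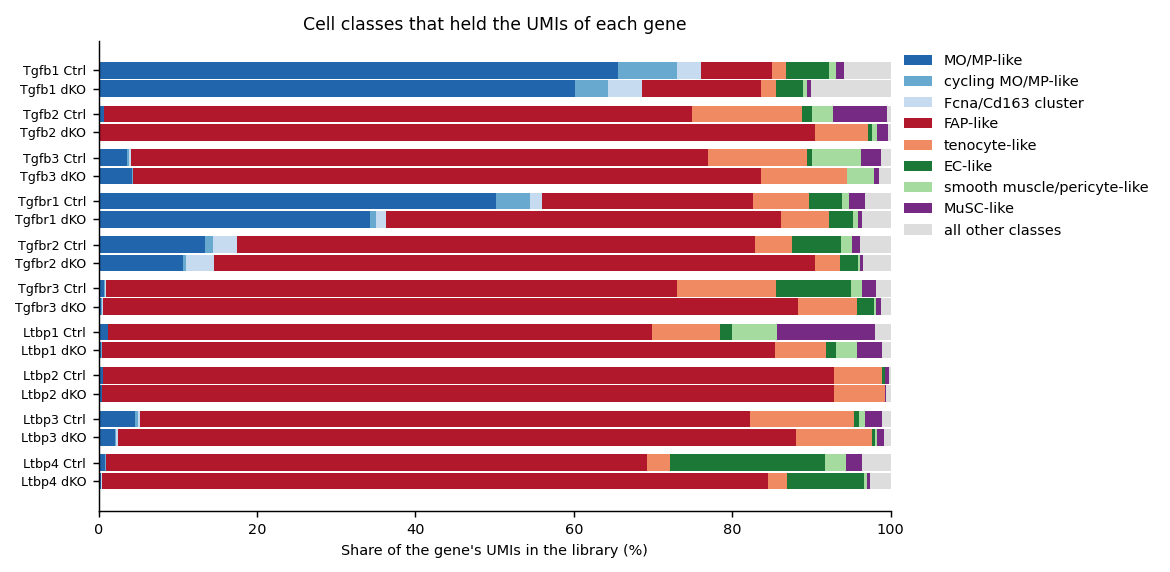
Share of each gene's UMIs (x axis, %) held by each cell class, with 1 bar for the Ctrl and 1 for the dKO library and colours for classes. Blue tones lead the bars of Tgfb1 and of Tgfbr1 in Ctrl, and FAP-like cells hold from 65.4% (Tgfbr2 in Ctrl) to 92.4% (Ltbp2 in dKO) of the other 8 genes.

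Among the ligands, Tgfb1, the isoform most studied in fibrosis, was found in every class, and of the classes with 20 or more cells MO/MP-like cells held the most. They held it at 298 CPM (288 to 307, 3644 UMIs) in Ctrl, against 226 CPM (216 to 237, 1788 UMIs) in dKO. Cycling MO/MP-like cells followed at 224 and 215 CPM and the Fcna/Cd163 cluster at 197 and 179 CPM, and in Ctrl the intervals of these 2 neighbours overlapped while that of MO/MP-like cells stood apart. In dKO the intervals of MO/MP-like, cycling MO/MP-like and B cell-like cells (193 CPM) overlapped in turn. Lymphatic EC-like cells, of which there were 18 and 13, stood at 294 and 297 CPM. The cycling class was not the same mixture in both libraries, since 9 neutrophil markers summed to 25743 CPM in it in Ctrl and to 398 CPM in dKO, and the part of these cells in its values was not tested.

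Lymphoid, dendritic and endothelial cells formed the middle of the order for Tgfb1, between 112 and 171 CPM in Ctrl and between 118 and 193 CPM in dKO. FAP-like cells were low, at 31.2 CPM (28.5 to 34.0) and 26.9 CPM (24.5 to 29.5), and MuSC-like cells stood at 22.5 and 21.0 CPM. The level in FAP-like cells was 10.5% and 11.9% of that in MO/MP-like cells. Macrophage genes that mark RNA carried between droplets stood lower on this scale. Lyz2 was at 0.355% and 0.320%, C1qa at 0.516% and 0.441% and C1qb at 0.577% and 0.438%. The 14 MO/MP markers summed to 313 and 613 CPM in FAP-like cells, against 15343 and 15667 CPM in MO/MP-like cells. The part of such cells or RNA in the Tgfb1 level was not tested.

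Tgfb1 was spread over many MO/MP-like cells. At all depths, 78.8% of these cells in Ctrl and 67.3% in dKO had at least 1 Tgfb1 UMI, with medians of 8865 and 7342 UMIs per cell. With each cell thinned to 2000 UMIs, which leaves out 55 and 62 shallower cells, the shares were 40.2% (37.4 to 43.2) and 34.2% (31.0 to 37.4). FAP-like cells had shares of 4.15% and 3.55% at that depth. Without thinning, cells with 10 or more Tgfb1 UMIs were 4.97% (59 of 1186) of MO/MP-like cells in Ctrl and 1.26% (12 of 955) in dKO.

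Tgfb2, the isoform that needs betaglycan most, was a gene of stromal and muscle cells. Tenocyte-like cells held it at 316 CPM (289 to 345) in Ctrl, against 293 CPM (259 to 331) in dKO, and FAP-like cells came next, at 165 CPM (159 to 172) and 216 CPM (209 to 223). Smooth muscle/pericyte-like cells (116 CPM in Ctrl) and MuSC-like cells (105 and 88.9 CPM) followed with overlapping intervals. In MO/MP-like cells Tgfb2 gave 24 UMIs in Ctrl, 7 of them in 1 cell, and 5 in dKO, which is 1.18% and 0.293% of the FAP-like level. Dcn, Col1a1 and Col3a1, which mark free stromal RNA, stood there at 0.632% to 0.764% of their FAP-like level in Ctrl and 0.492% to 0.563% in dKO, so the Tgfb2 UMIs of MO/MP-like cells were not separable from that background in dKO and close to it in Ctrl.

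The higher Tgfb2 level of FAP-like cells in dKO went with more UMIs in the cells that had any, and not with more such cells. Cells with a Tgfb2 UMI were 57.7% in Ctrl and 58.0% in dKO, and 25.9% (23.3 to 28.7) and 25.3% (22.8 to 28.0) after thinning. Cells with at least 1 UMI held a mean of 4.08 in Ctrl and 5.24 in dKO, and cells with 10 or more were 6.32% (4.97 to 7.90) and 9.66% (8.04 to 11.5) of the class. The class had median depths of 12173.5 and 12115 UMIs per cell.

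Tgfb3, the third ligand, was highest in tenocyte-like cells (146 CPM in Ctrl, 180 CPM in dKO) and smooth muscle/pericyte-like cells (137 and 220 CPM), and these neighbours had overlapping intervals in each library. FAP-like cells held 83.5 CPM (79.1 to 88.1) and 71.3 CPM (67.3 to 75.4), and MuSC-like cells 19.9 and 16.2 CPM. MO/MP-like cells had 5.39 CPM (66 UMIs) and 7.84 CPM (62 UMIs), which is 6.45% and 11.0% of the FAP-like level and above the free stromal RNA. Neutrophil-like cells had 0 Tgfb3 UMIs, which allows up to 8.42 CPM in Ctrl and 35.4 CPM in dKO, taking 3 UMIs per library as the limit of a count of 0.

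**Figure D2:**
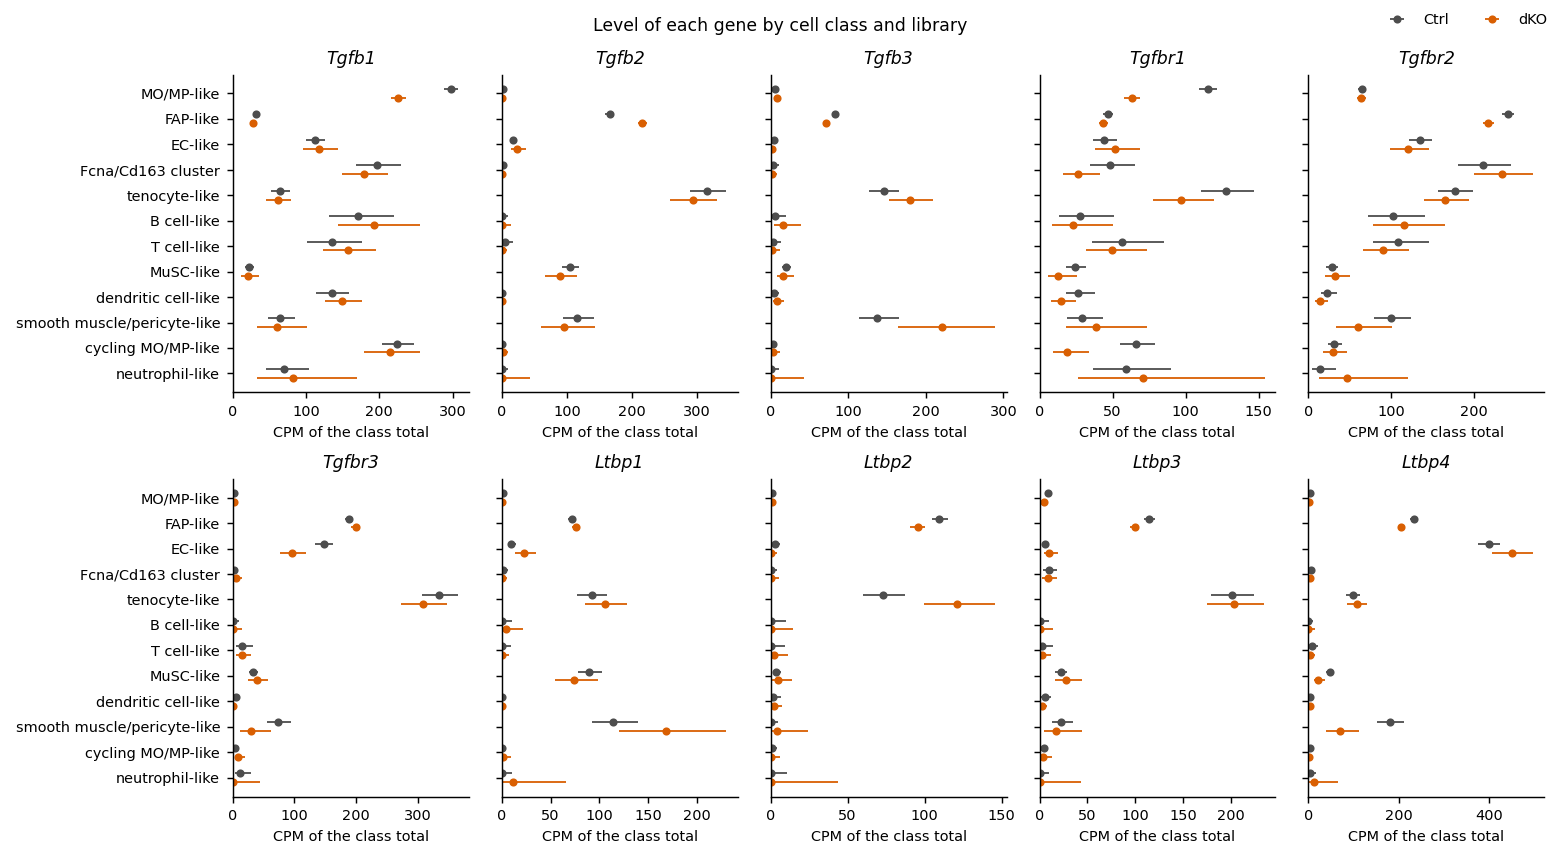
Level of each gene (x axis, CPM of the class total, linear) in the 12 classes with at least 20 cells in each library, with a colour for each library and bars for the 95% Poisson interval. Tgfb1 in MO/MP-like cells stands at 298 and 226 CPM and Tgfb2 in FAP-like cells at 165 and 216 CPM, with intervals that do not overlap between the libraries.

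Of the receptors, Tgfbr1, the kinase that phosphorylates Smad2 and Smad3, was highest in tenocyte-like cells (128 CPM in Ctrl, 96.6 CPM in dKO) and MO/MP-like cells. The MO/MP-like level was 115 CPM (109 to 121, 1409 UMIs) in Ctrl, against 63.1 CPM (57.6 to 68.8, 499 UMIs) in dKO. In Ctrl the MO/MP-like level lay above that of every class but tenocyte-like cells, and in dKO its interval overlapped those of neutrophil-like (70.8 CPM), EC-like (51.6 CPM), T cell-like (49.5 CPM) and smooth muscle/pericyte-like (38.9 CPM) cells. FAP-like cells held 46.7 CPM (43.4 to 50.2) and 43.7 CPM (40.6 to 47.0).

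Fewer MO/MP-like cells of dKO had a Tgfbr1 UMI at equal depth. The share at 2000 UMIs per cell was 18.7% (16.5 to 21.1) in Ctrl and 10.3% (8.39 to 12.5) in dKO, and in FAP-like cells it was 10.1% and 9.15%. Without thinning, at medians of 8865 and 7342 UMIs per cell, 9 of 1186 MO/MP-like cells in Ctrl and 0 of 955 in dKO had 10 or more Tgfbr1 UMIs. The same direction was seen in 2 neighbouring classes. The Fcna/Cd163 cluster stood at 48.4 CPM (41 UMIs) and 26.3 CPM (19 UMIs). Cycling MO/MP-like cells, with the neutrophil genes named above, stood at 66.2 CPM (122 UMIs) and 19.0 CPM (11 UMIs). It was not confined to these, since the dKO to Ctrl ratio in tenocyte-like cells was 0.755 (0.580 to 0.976). In EC-like cells it was 1.17 (0.811 to 1.66).

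Tgfbr2, the ligand-binding receptor, was broader. FAP-like cells held 241 CPM (234 to 249) in Ctrl, against 218 CPM (211 to 225) in dKO. The Fcna/Cd163 cluster was alike, at 211 CPM (181 to 245) and 234 CPM (200 to 272), and its intervals overlapped those of FAP-like cells in both libraries. MO/MP-like cells stood lower, at 64.8 CPM (60.4 to 69.5) and 63.9 CPM (58.5 to 69.8), so the Fcna/Cd163 cluster held more Tgfbr2 and less Tgfbr1 than MO/MP-like cells. The 14 MO/MP markers summed to 18525 and 18711 CPM in that cluster and to 15343 and 15667 CPM in MO/MP-like cells. The small lymphatic EC-like class (18 and 13 cells) reached 835 CPM (670 to 1029) and 735 CPM (540 to 977).

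Tgfbr3 was held by tenocyte-like cells at 335 CPM (307 to 365) and 309 CPM (273 to 347), by FAP-like cells at 189 CPM (182 to 196) and 199 CPM (192 to 206), and by EC-like cells at 148 CPM (134 to 163) and 96.4 CPM (76.9 to 119). In MO/MP-like cells its 28 and 9 UMIs were 1.21% and 0.571% of the FAP-like level, close to the free stromal RNA. B cell-like cells had 0 Tgfbr3 UMIs in both libraries, which with the same limit of 3 UMIs allows up to 8.29 CPM in Ctrl and 11.6 CPM in dKO.

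Both signalling receptors were found in the same cell more often in FAP-like than in MO/MP-like cells. Cells with UMIs of Tgfbr1 and Tgfbr2 were 36.8% (34.0 to 39.7) of FAP-like cells in Ctrl and 33.4% (30.7 to 36.2) in dKO. In MO/MP-like cells they were 23.8% (21.4 to 26.3) and 14.6% (12.4 to 17.0). The product of the separate shares was 34.0% and 29.7% for FAP-like and 18.9% and 10.9% for MO/MP-like cells. These shares are at full depth, which differs between the classes. At 2000 UMIs per cell, cells with both were 4.62% (3.44 to 6.07) and 4.17% (3.08 to 5.51) of FAP-like cells. They were 2.56% (1.72 to 3.66) and 1.46% (0.777 to 2.48) of MO/MP-like cells, with counts of 13 to 49 cells. At that depth the intervals of the classes overlapped in Ctrl and not in dKO.

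Among the latency proteins, Ltbp1, the first binding protein of the latent complex, stood at 114 CPM (92.4 to 140) in Ctrl, against 168 CPM (120 to 230) in dKO in smooth muscle/pericyte-like cells, with overlapping intervals in the Sfrp5 cluster of Ctrl (135 CPM) and in tenocyte-like cells (92.0 and 105 CPM). FAP-like cells held 72.0 and 76.4 CPM and MuSC-like cells 89.6 CPM (77.8 to 103) and 74.3 CPM (54.4 to 99.1). MuSC-like cells thus held 12.4% of all Ltbp1 UMIs in Ctrl, the largest share of any of the 10 genes for this class there, and 3.08% in dKO, where they were 0.974% of cells against 2.92%.

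Ltbp2 belongs to the family by sequence but does not bind latent TGF-beta. It stood at 110 CPM (105 to 115) and 95.5 CPM (90.8 to 100) in FAP-like cells and at 72.9 CPM (60.1 to 87.5) and 121 CPM (99.3 to 146) in tenocyte-like cells. Every other class of 20 cells or more had 8 UMIs or fewer in Ctrl, apart from MO/MP-like cells with 9. Few cells carried it: 22.1% of FAP-like cells in Ctrl and 24.0% in dKO had a UMI, and the 10% of FAP-like cells with the most held 87.6% and 82.0% of its UMIs, against 33.8% and 37.1% for Tgfbr2.

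Ltbp3, which binds the latent complex and is needed for its secretion, was highest in tenocyte-like cells, at 201 CPM (179 to 224) and 203 CPM (175 to 235), with FAP-like cells at 115 CPM (110 to 120) and 99.4 CPM (94.6 to 104). MO/MP-like cells had 8.90 CPM (109 UMIs) in Ctrl and 4.93 CPM (39 UMIs) in dKO, which is 7.76% and 4.96% of the FAP-like level.

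Ltbp4, a binding protein whose gene modifies the course of muscular dystrophy in mice, had its highest levels in the endothelial classes. FAP-like cells nevertheless held most Ltbp4 UMIs, 3728 of 5456 in Ctrl and 3413 of 4055 in dKO. EC-like cells held it at 399 CPM (375 to 424) in Ctrl, against 451 CPM (407 to 498) in dKO, and lymphatic EC-like cells reached 1205 and 1172 CPM. The Sfrp5 cluster of Ctrl stood at 345 CPM (265 to 440), with an interval that overlapped that of EC-like cells. FAP-like cells followed with 233 CPM (226 to 241) and 205 CPM (199 to 212). MuSC-like cells had 46.7 CPM (108 UMIs) and 21.0 CPM (13 UMIs), and MO/MP-like cells 3.43 CPM (42 UMIs) and 1.64 CPM (13 UMIs), the first of which is 1.47% of the FAP-like level.

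Within classes, the clusters differed widely in these genes, although all 10 were kept out of the genes used for clustering. The cluster levels are a description, since other genes of the same cells defined the clusters. FAP-like cells formed 4 clusters. One was led by Inmt and C7 (518 Ctrl and 534 dKO cells), one by Postn and C1qtnf3 with the matrix genes Cthrc1 and Aspn (352 and 323), one by Cxcl13 and Efhd1 with Pi16 and Dpp4 (136 and 160), and one by Cxcl5 and Il1rl1 with cell cycle genes (118 and 163).

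The Cxcl13/Efhd1 cluster had the most Tgfbr2, Tgfbr3 and Ltbp1 of the FAP-like clusters. Its Tgfbr2 level was 624 CPM in Ctrl and 598 CPM in dKO, against 115 to 246 CPM in the other 3 FAP-like clusters. Tgfbr3 stood at 351 and 409 CPM there, against 107 to 270 CPM elsewhere, and Ltbp1 at 223 and 238 CPM, against 41.9 to 66.7 CPM. Tgfbr1 did not stand apart there, at 57.3 CPM (49.1 to 66.4) over both libraries, against 51.3 CPM (46.9 to 56.0) in the Inmt/C7 cluster. It held the least Tgfb1, at 13.3 and 12.8 CPM, and over both libraries Ltbp2 was at 0.326 CPM, against 147 and 191 CPM in the Postn/C1qtnf3 and Cxcl5/Il1rl1 clusters.

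The Postn/C1qtnf3 cluster had the most Tgfb2 (188 and 259 CPM) and Tgfb3 (122 and 109 CPM) of the FAP-like clusters in each library. The Inmt/C7 cluster had the most Ltbp4, at 416 and 335 CPM, against 122 to 171 CPM in the other 3, and little Ltbp2 (11.3 and 15.1 CPM). The order of the clusters thus differed from gene to gene.

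MO/MP-like cells also formed 4 clusters. Tgfb1 was at 309 and 242 CPM in the cluster led by Syngr1 and Spp1, 328 and 209 CPM in the one led by Apoe and Gpr34, 297 and 260 CPM in the one led by Ear2 and Dcstamp, and 212 and 186 CPM in the one led by Slpi and Clec4e, which also has the monocyte genes Chil3 and Ly6c2 among its leading genes. All 4 were lower in dKO. Tgfbr1 was concentrated in the Apoe/Gpr34 cluster (175 CPM in Ctrl and 71.2 CPM in dKO) and the Syngr1/Spp1 cluster (122 and 83.1 CPM), and stood at 35.1 to 43.0 CPM in the other 2.

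EC-like cells formed 3 clusters. The one led by Cytl1 and Gkn3, with the arterial genes Gja5, Gja4 and Bmx among its leading genes, held Ltbp4 at 1181 CPM over both libraries, against 304 CPM in the cluster led by Gpihbp1 and 271 CPM in the one led by Selp. It also had more Tgfb2 (66.8 against 15.3 and 4.28 CPM) and less Tgfbr3 (12.5 against 144 and 172 CPM) over both libraries. Its dKO part was 32 cells.

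**Figure D3:**
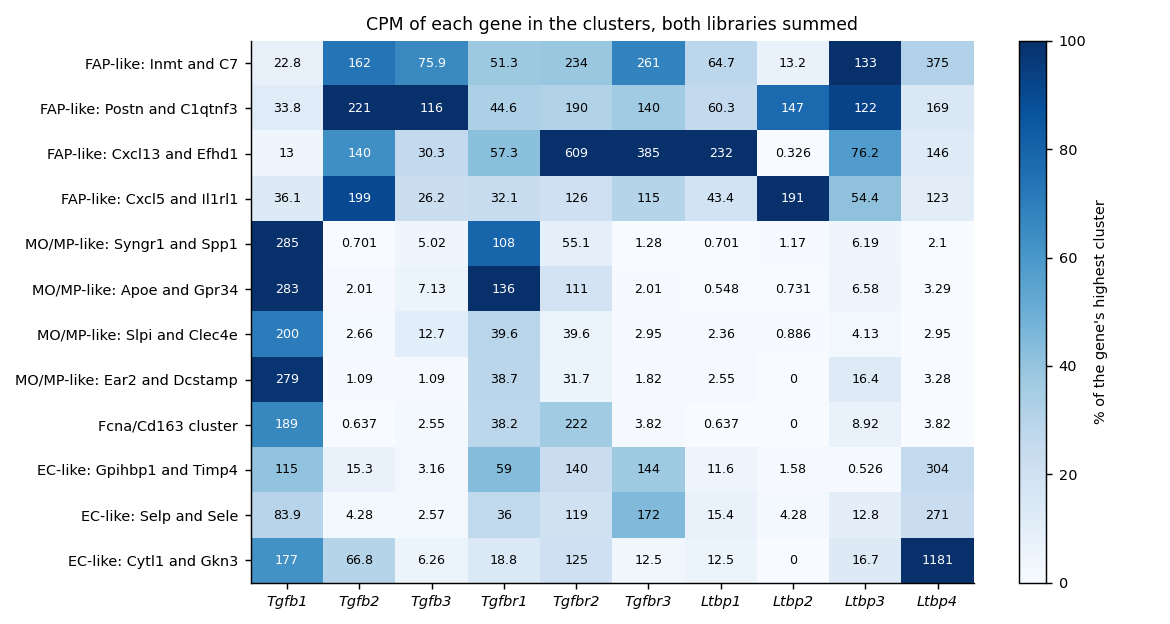
Level of each gene (number in each field, CPM over both libraries) in the clusters of FAP-like, MO/MP-like and EC-like cells and the Fcna/Cd163 cluster, with colour for the percent of the gene's highest cluster. Tgfbr2, Tgfbr3 and Ltbp1 peak in the FAP-like cluster led by Cxcl13 and Efhd1, Ltbp2 is at 0.326 CPM there, and Ltbp4 peaks at 1181 CPM in the EC-like cluster led by Cytl1 and Gkn3.

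The dKO to Ctrl comparison within classes asked whether deleting Yy1 in MuSCs went with other levels of these genes in the surrounding cells. In FAP-like cells all 10 genes had 100 UMIs or more, and 0 were higher and 0 lower in dKO by 1.5-fold or more, where 2.77% of 10451 genes were higher and 2.83% lower by that much. The median log2 ratio was -0.17 over the 10 genes and -0.05 over all genes with 100 UMIs. Tgfb2 had the highest ratio, 1.30 (1.24 to 1.37), and Tgfb3 the lowest, 0.853 (0.788 to 0.923), so these ligands stood on opposite sides of 1 over the class. By cluster the Tgfb3 ratio was 0.891 (0.804 to 0.988) in the Postn/C1qtnf3 cluster and 0.674 (0.497 to 0.915) in the Cxcl5/Il1rl1 cluster, whereas it was 1.08 in the Inmt/C7 and 1.30 in the Cxcl13/Efhd1 cluster, with intervals that held 1. As the mean of each cell's own CPM, the Tgfb3 ratio of the class was 1.01. Tgfb1 stood at 0.864 (0.758 to 0.983), while the 14 MO/MP markers in FAP-like cells summed to 313 CPM in Ctrl and 613 CPM in dKO, and their part in this ratio was not tested. The interval of Tgfbr1 (0.935, 0.843 to 1.04) and of Ltbp1 (1.06, 0.979 to 1.15) held 1.

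Tgfb2 was higher in dKO in each of the 4 FAP-like clusters. The ratios were 1.26 (1.14 to 1.39) in the Inmt/C7 cluster, 1.37 (1.28 to 1.48) in the Postn/C1qtnf3 cluster, 1.54 in the Cxcl13/Efhd1 cluster (an upper bound of 1.90 and a lower bound above 1) and 1.27 (1.14 to 1.42) in the Cxcl5/Il1rl1 cluster. In tenocyte-like cells (0.928, 0.796 to 1.08) and MuSC-like cells (0.845, 0.619 to 1.14) the interval held 1. Over the FAP-like class, the 8 markers of perineurial or synovial stroma summed to 1161 CPM in Ctrl and 2781 CPM in dKO, and the part of such cells in the FAP-like ratios was not tested. The FAP-like ratio was smaller by other measures, at 1.22 as the mean of each cell's own CPM and 1.17 with cells thinned to 2000 UMIs. The cause of this was not tested.

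In MO/MP-like cells 5 of the 10 genes had 100 UMIs, of which 0 were higher and 2 lower by 1.5-fold or more, against 4.51% and 2.66% of 8505 genes. The 2 were Tgfbr1, with a ratio of 0.548 (0.494 to 0.607), and Ltbp3, with 0.554 (0.374 to 0.805). Tgfb1 had a ratio of 0.759 (0.717 to 0.804), Tgfbr2 of 0.986 (0.880 to 1.10) and Tgfb3 of 1.45 (1.01 to 2.09). Tgfbr1 and Tgfbr2, which act as 1 complex, therefore stood apart in the same cells.

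Both low ratios varied over the MO/MP-like clusters. For Tgfb1 the ratio was 0.636 (0.568 to 0.712) in the Apoe/Gpr34 cluster and 0.785 (0.719 to 0.856) in the Syngr1/Spp1 cluster, and in the Slpi/Clec4e cluster (0.877, 0.750 to 1.03) and the Ear2/Dcstamp cluster (0.877, 0.759 to 1.01) the interval held 1. For Tgfbr1 the ratio was 0.407 (0.337 to 0.489) in the Apoe/Gpr34 cluster, 0.683 (0.589 to 0.791) in the Syngr1/Spp1 cluster, 0.817 (0.566 to 1.17) in the Slpi/Clec4e cluster and 0.868 (0.579 to 1.29) in the Ear2/Dcstamp cluster. Ltbp3 had 47 UMIs in Ctrl and 6 in dKO in the Syngr1/Spp1 cluster, a ratio of 0.231 (0.0808 to 0.542), and in the other 3 clusters its ratio was 0.579 to 0.834 with intervals that held 1. Over the 10 FAP markers the summed level in MO/MP-like cells was 269 CPM in Ctrl and 176 CPM in dKO, and its part in the Ltbp3 ratio was not tested.

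In EC-like cells 5 genes had 100 UMIs, of which 0 were higher and 1, Tgfbr3, was lower by 1.5-fold or more, against 4.59% and 7.36% of 4753 genes. The Tgfbr3 ratio was 0.651 (0.508 to 0.826), with 0.546 in the Gpihbp1/Timp4 cluster, where the interval left out 1, and 0.875 in the Selp/Sele cluster, where it held 1. Without doublet removal, with a cell filter of 200 genes and 1000 UMIs, or after thinning, no gene passed 1.5-fold in this class. Ltbp4 had a ratio of 1.13 (1.00 to 1.27) in the class and of 0.915 to 0.984 in its 3 clusters, where every interval held 1. The Cytl1/Gkn3 cluster, which holds the most Ltbp4, was 64 of 466 EC-like cells in Ctrl and 32 of 179 in dKO. Tgfb1 stood at 1.06 (0.837 to 1.33) in the class. In the Cytl1/Gkn3 cluster Tgfb1 was at 135 CPM (41 UMIs) in Ctrl and 250.1 CPM (44 UMIs) in dKO, a ratio of 1.85 (1.18 to 2.90), and in the Gpihbp1/Timp4 (0.870) and Selp/Sele (0.730) clusters the interval held 1.

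In tenocyte-like cells all 10 genes had 100 UMIs, of which 1 was higher and 0 lower, against 3.11% and 3.46% of 3183 genes. The 1 was Ltbp2, with a ratio of 1.66 (1.26 to 2.18), and it was carried by 35 of 146 Ctrl and 22 of 91 dKO cells, with 18.4% and 16.5% of its UMIs in 1 cell of each library. Its ratio in FAP-like cells was 0.871 (0.813 to 0.933). As the mean of each cell's own CPM no gene passed 1.5-fold in tenocyte-like cells.

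In smooth muscle/pericyte-like cells (107 and 38 cells) 4 genes had 100 UMIs, of which Tgfb3 was higher and Ltbp4 lower by 1.5-fold or more, against 7.40% and 10.8% of 1811 genes. Tgfb3 had 113 UMIs in Ctrl and 51 in dKO, a ratio of 1.60 (1.13 to 2.25), and after thinning the ratio turned to 0.946. Ltbp4 had 148 and 16 UMIs, a ratio of 0.384 (0.214 to 0.644). Over 11 other settings this ratio ran from 0.275 (without the cell with the most Ltbp4 UMIs in each library) to 0.639 (after thinning). Tgfbr3 had 60 and 7 UMIs, a ratio of 0.414 (0.160 to 0.907). The class joins 2 cell types. Its pericyte genes were lower in dKO, the direction of Ltbp4 and Tgfbr3 but not of Tgfb3. Rgs5 stood at 8525 CPM in Ctrl and 3676 CPM in dKO, Abcc9 at 619 and 238 CPM and Kcnj8 at 361 and 207 CPM. Of the smooth muscle genes, Myh11 stood at 3560 and 3335 CPM and Cnn1 at 271 and 302 CPM. Acta2 stood at 8366 and 12126 CPM, a ratio of 1.45 (1.39 to 1.51). The 12 EC markers summed to 6878 and 3715 CPM in the class. The part of these genes' cells in the Tgfb3, Ltbp4 and Tgfbr3 ratios was not tested.

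MuSC-like cells, in which Yy1 was deleted, numbered 117 in Ctrl and 30 in dKO. Of the 9 genes with 50 UMIs or more over both libraries, Ltbp4 (0.449, 0.232 to 0.801) had an interval that left out 1. In the same class the 10 FAP markers summed to 695 CPM in Ctrl and 359 CPM in dKO and the 10 myocyte markers to 2438 and 4306 CPM, and the part of such cells or RNA in the Ltbp4 ratio was not tested. Tgfbr1 had 56 and 8 UMIs (0.533, 0.220 to 1.12), and Ltbp1 207 and 46 (0.830, 0.589 to 1.15). The other 8 intervals held 1, so no difference was detectable at this depth.

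**Figure D4:**
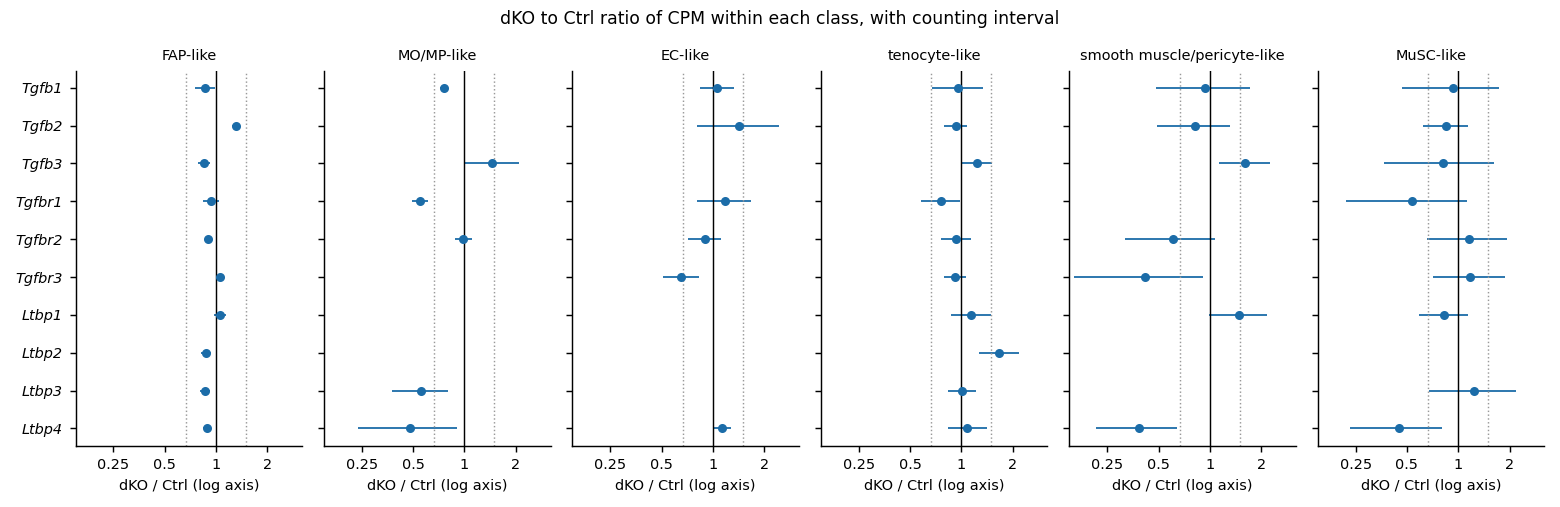
Ratio of CPM in dKO to CPM in Ctrl (x axis, log scale) for each gene in 6 classes, where the gene had at least 50 UMIs over both libraries, with bars for the 95% counting interval, a solid line at 1 and dotted lines at 1.5-fold. FAP-like ratios lie between 0.853 and 1.30, and Tgfbr1 in MO/MP-like cells lies at 0.548.

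Over whole libraries, the ratio of a gene combines the makeup of the cells and its level in each class. Tgfb1 was at 136 CPM of the whole Ctrl library and 97.8 CPM of dKO (0.718, 0.687 to 0.751), Tgfbr1 at 68.8 and 47.9 CPM (0.696, 0.653 to 0.742), and Tgfb2 at 87.3 and 130 CPM (1.49, 1.43 to 1.56). The other 7 genes had ratios between 0.997 (Ltbp4) and 1.21 (Ltbp2).

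Counted per cell, the makeup and the levels could be set apart by arithmetic. Levels are here UMIs per cell, which also carry the depth of the cells. UMIs of all genes gave 0.920 for the levels alone, 1.05 for the makeup alone and 0.970 as measured. With the class shares of Ctrl and the levels of dKO the Tgfb1 ratio was 0.720, and with the levels of Ctrl and the shares of dKO it was 0.985, next to a measured 0.697. Tgfbr1 gave 0.623, 1.05 and 0.675. Tgfb2 gave 1.18, 1.18 and 1.45, and its levels stood further above those of all genes (0.920) than its makeup value did (1.05). For Ltbp2, Ltbp3, Ltbp4, Tgfbr2 and Tgfb3 the levels alone gave 0.862 to 0.921 and the makeup alone 1.12 to 1.32. The makeup values lay above the 1.05 of all genes. For the levels, Tgfb3 (0.921) and Ltbp2 (0.907) were close to the 0.920 of all genes. Tgfbr2 (0.883), Ltbp3 and Ltbp4 (both 0.862) were lower than that. The classes of a sort need not keep the proportions of the muscle.

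**Figure D5:**
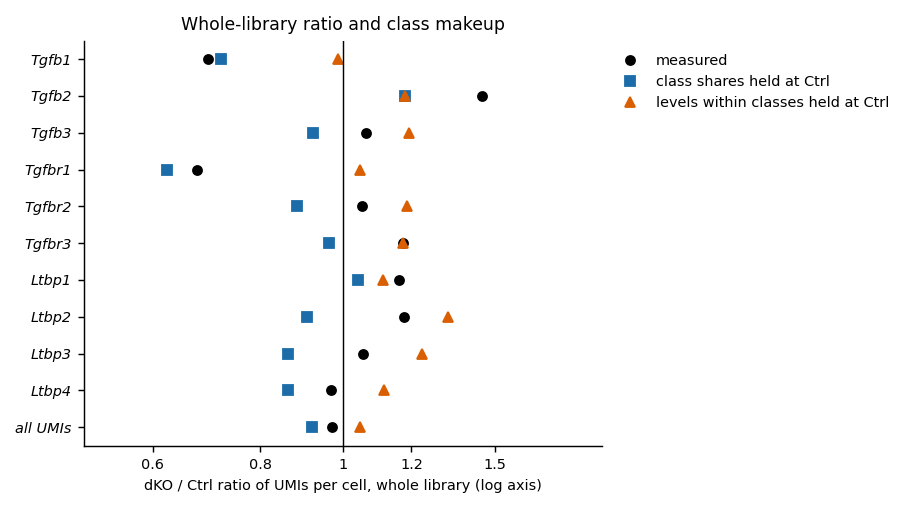
Ratio of UMIs per cell in dKO to Ctrl (x axis, log scale) for each gene and for UMIs of all genes over the whole library as measured (circles), with class shares held at Ctrl (squares) and with levels within classes held at Ctrl (triangles). For Tgfb1 the squares (0.720) and circles (0.697) lie together. For Ltbp2 the triangle (1.32) lies above that of all genes (1.05), and the square (0.907) lies close to that of all genes (0.920).

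Another 56 genes of the pathway, in lists of latency and activation, other receptors, Smads and feedback, and genes induced by TGF-beta, were described in the 3 largest classes. In FAP-like cells 52 had 100 UMIs, of which 1 was higher and 2 were lower in dKO by 1.5-fold or more, against 2.77% and 2.83% of all genes with 100 UMIs. The median log2 ratio was -0.11 over these and -0.05 over all genes. Timp1, an inhibitor of matrix proteases, was at 1011 CPM in Ctrl and 1774 CPM in dKO, a ratio of 1.75 (1.72 to 1.79). Postn, a matrix protein, was at 2949 and 1623 CPM (0.550, 0.542 to 0.559), and Acta2, smooth muscle actin, at 80.7 and 47.4 CPM (0.588, 0.537 to 0.643). Genes of the list induced by TGF-beta thus stood on both sides, and over its 20 measured members the median log2 ratio was -0.23.

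The next genes by size in FAP-like cells did not pass 1.5-fold. Cthrc1, a secreted protein of activated stroma, had a ratio of 0.678 and Fbn2, a fibrillin, of 0.703. On the other side Tgif1, a Smad co-repressor, had 1.41 and Tagln, a smooth muscle gene, 1.29. By cluster, Postn was at 5320 and 2859 CPM in the cluster it leads, Timp1 was higher in dKO in all 4 clusters, and Acta2 was at 210 and 63.9 CPM in the Cxcl5/Il1rl1 cluster.

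In MO/MP-like cells 41 of the 56 had 100 UMIs, of which 0 were higher and 10 lower, against 4.51% and 2.66% of all genes with 100 UMIs, with a median log2 ratio of -0.20 against 0.00 over all genes. Of the 10, the 4 lowest were Acta2 (0.499), Postn (0.511), Pmepa1 (0.528) and Col1a1 (0.558). Postn and 4 collagen genes among the 10 are stromal genes. Dcn, which is not among the 10 and marks free stromal RNA, stood in MO/MP-like cells at 0.764% of its FAP-like level in Ctrl and 0.537% in dKO, and the part of such RNA in these ratios was not tested. Pmepa1, which dampens Smad signalling, was at 53.6 and 28.3 CPM, a ratio of 0.528 (0.452 to 0.616), with 0.558 in the Syngr1/Spp1 and 0.506 in the Apoe/Gpr34 cluster. At the other end were Nrros, which tethers latent TGF-beta on macrophages, at 106 and 150 CPM (1.41, 1.30 to 1.53), Tgif1 (1.32), the Smad repressor Skil (1.27) and Smad3 (1.22, 0.913 to 1.64).

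In EC-like cells 35 had 100 UMIs, of which 5 were higher, Lrrc32, Fn1, Dcn and Bgn among them, and 5 lower (Mmp14, Smad2, Acta2, Col1a2 and Col3a1), against 4.59% and 7.36% of all genes with 100 UMIs. The names were chosen after their values were seen. Lrrc32 encodes GARP, which holds latent TGF-beta on the cell surface. Acta2 had 119 UMIs in Ctrl and 6 in dKO in this class. The 12 smooth muscle/pericyte markers, Acta2 among them, summed to 925 CPM in Ctrl and 567 CPM in dKO there. Dcn, also a mark of free stromal RNA, went from 0.478% to 1.12% of its FAP-like level. The other such marks did not move alike, with Col1a1 at 0.474% and 0.580% and Col3a1 at 0.648% and 0.485%. The 10 FAP markers summed to 212 and 226 CPM in EC-like cells. The 8 perineurial or synovial stroma markers went from 65.8 to 118 CPM and the 9 tenocyte markers from 36.3 to 57.4 CPM. The part of such cells or RNA in these ratios was not tested.

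Likeness of pattern was described over 24 points, 12 classes in each of the 2 libraries, with Pearson's r of log2(CPM + 1) among 12606 genes. The points share libraries and classes, so r is given with no p. Tgfb1 was most like Irf8 (0.90), Ubl3 and Gna13, and Tgfb2 most like Sspn (0.98), 3110039I08Rik and Rbms3. Tgfb3 was most like Snhg18 (0.92), Cacna2d1 and Fat1. Tgfbr1 had the weakest nearest pattern, with Kif13b (0.76), Rabac1 and Os9, and Tgfbr2 followed with Atf7 (0.88), Kdsr and Tmem106b. For Tgfbr3 the nearest were Ppic (0.95) and Mxra8. The latency proteins were nearest to Gnao1 (0.94), Rbms3 and Frk for Ltbp1, Gm5859 (0.95), Sdk1 and Naaladl2 for Ltbp2, Nfix (0.95), Gstm5 and Dnm3os for Ltbp3, and Col4a1 (0.95), Wwtr1 and Fam171a1 for Ltbp4. Among the 10 genes, Tgfb2 was nearest to Ltbp1 (0.92), while Tgfb1 ran against both Tgfb2 (-0.78) and Ltbp1 (-0.79) over these points.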

How the data were processed

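Droplet libraries of live mononuclear hind limb muscle cells (10x Chromium), 1 of Ctrl and 1 of dKO mice, were analysed from the deposited counts. The authors deposited unnormalized UMI counts of each gene in each called cell. The file headers name software version 3.0.2 and the submitters' processing notes name Cell Ranger 7.0.0, Cufflinks, Seurat 4.3.0 and mm10, so the version behind the counts was not settled. The files hold 24984 genes and 0 mitochondrial genes. The total was 45556596 UMIs in Ctrl and 33815155 in dKO.

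The Ctrl and dKO groups follow the sample titles. A minimum of 500 genes per cell removed 192 and 154 cells. The threshold of Scrublet (scanpy 1.11.5) did not work, since it called 4 and 14 cells, so the top 7.5% of cells by score (325 and 250) were taken out instead. Libraries were integrated with Seurat 5.3.0 (R 4.3.3) on 2000 variable genes, from which the 10 genes and the other pathway genes were left out, with 40 dimensions, and clustered at a resolution of 0.8. The 22 clusters were named from 18 marker lists and joined to 14 classes. Members and lists were chosen with earlier results of these data known. UMIs were summed per class and library and given as CPM of the class total. Intervals at 95% are exact Poisson (levels), Clopper-Pearson (shares) and conditional exact (ratios, for 50 UMIs or more over both libraries). UMI counting error is all they cover. Counts past 1.5-fold used genes with 100 UMIs or more. With 1 library per group no test was possible. Named besides the 10 genes were the 4 pathway genes with the highest and the 4 with the lowest ratio in FAP-like and MO/MP-like cells, and the 3 genes most like each member among genes of 10 CPM or more in some class, and a few genes that these rules name are not reported here. The ratio code was tested on simulated data. The settings tried were doublet removal, the cell filter, resolution, integration, the variable genes, the mean over cells, thinning, leaving out the top cell, the fold and the UMI minimum.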

Additional observations from a re-analysis of the deposited data

Results flagged for a closer look

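For 4 genes the dKO to Ctrl ratio of CPM stood on opposite sides of 1 in different cell classes, with counting intervals that left out 1 on both sides. The classes given are those with the lowest and the highest such ratio. With 1 library per group, the difference was not tested for any of them. Tgfb3 had a ratio of 0.853 (0.788 to 0.923) in FAP-like cells and 1.60 (1.13 to 2.25) in smooth muscle/pericyte-like cells, and it also stood above 1 in MO/MP-like (1.45, 1.01 to 2.09) and tenocyte-like (1.23, 1.00 to 1.52) cells. Tgfbr3 had 1.05 (1.00 to 1.11) in FAP-like cells and 0.414 (0.160 to 0.907) in smooth muscle/pericyte-like cells, where it had 60 and 7 UMIs, and 0.651 (0.508 to 0.826) in EC-like cells, where it had 396 and 84 UMIs. Ltbp2 had 0.871 (0.813 to 0.933) in FAP-like cells and 1.66 (1.26 to 2.18) in tenocyte-like cells. Ltbp4 had 1.13 (1.00 to 1.27) in EC-like cells and 0.384 (0.214 to 0.644) in smooth muscle/pericyte-like cells. Thinning gave a Tgfb3 ratio of 0.946 in smooth muscle/pericyte-like cells, so that pair was no longer on opposite sides of 1, and the mean of each cell's own CPM gave 1.01 in FAP-like cells. The EC-like clusters had Ltbp4 ratios of 0.984, 0.915 and 0.942 with intervals that held 1. The FAP-like clusters had Tgfb3 ratios of 0.674 to 1.30 and Tgfbr3 ratios of 0.935 to 1.17, and the Tgfbr3 interval left out 1 in 1 of the 4, the Cxcl13/Efhd1 cluster. For Ltbp2 the Postn/C1qtnf3 (0.903) and Cxcl5/Il1rl1 (0.823) clusters had intervals below 1, and in the Inmt/C7 cluster (1.33) the interval held 1.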

How the results depend on the processing

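Over 11 other settings of the processing, 495 of 526 recomputed ratios (48 ratios of a gene in a class) stayed on the same side of 1, and 507 moved by less than the counting interval. The ratio in MO/MP-like cells ranged from 0.739 to 0.770 for Tgfb1 and from 0.541 to 0.575 for Tgfbr1, and the Tgfb2 ratio in FAP-like cells from 1.17 to 1.35. In smooth muscle/pericyte-like cells the Tgfb3 ratio reversed to 0.946 after thinning, and the Ltbp4 ratio ranged from 0.275 to 0.639. The widest ranges were 0.612 to 7.47 for Tgfb3, 0.835 to 2.24 for Tgfbr2 and 0.254 to 0.679 for Tgfbr1 in MuSC-like cells and 0.620 to 1.65 for Tgfb2 in EC-like cells. The Tgfb2 ratio in FAP-like cells was 1.22 as a mean of each cell's CPM and 1.17 after thinning.

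Genes past 1.5-fold in EC-like cells numbered 0 with no doublets removed, with the filter of 200 genes and 1000 UMIs, and after thinning. In tenocyte-like cells there were 0 by the mean of cells and 2 after thinning, and in smooth muscle/pericyte-like cells 1 without the top cell. With the limit lowered to a change of 25% the numbers were 1 (FAP-like), 4 (MO/MP-like) and 2 (tenocyte-like), and at a fold of 2 they were 0 (MO/MP-like, EC-like and tenocyte-like) and 1 (smooth muscle/pericyte-like). Pathway genes past 1.5-fold numbered 17 in MO/MP-like cells with no doublets removed, and 5 in FAP-like and 17 in EC-like cells at 20 UMIs or more. The Tgfb1 share in MO/MP-like cells was 68.4% and 64.5% (Ctrl and dKO) at a resolution of 0.4, and 68.6% and 64.5% with the Fcna/Cd163 cluster joined, a setting chosen after seeing the data. The Tgfb2 share in FAP-like cells was 71.2% and 87.2% with no doublets removed and 69.2% and 86.5% at a resolution of 1.2. For these changes the cause was not tested, apart from those of the fold and the UMI minimum, which act on the count itself.

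No paired analysis was possible because each group has 1 library and the result comes from no test. Pooling of mice within a library hides the spread between animals, and depth limits classes such as MuSC-like cells, with 30 cells in dKO.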
